A study of Mus musculus with 139 samples.

Results

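The 34 genes described here encode SR proteins, their Tra2 relatives and hnRNPs, the RNA-binding proteins that decide which exons enter an mRNA. They were taken by symbol as a fixed list of 34 of the 52885 genes in each of 7 expression tables: 10 SR proteins (Srsf1 to Srsf7, Srsf9, Srsf10 and Srsf11), Tra2a and Tra2b, 7 hnRNPs of the A/B and D types, 3 of the C, M and R types, 4 of the F/H type, Hnrnpl with Ptbp1 and Ptbp2, 3 KH-domain proteins, and Hnrnpul1 with Hnrnpul2. The rule goes by symbol and uses no measured value, and all 34 passed the filter on low values in each of the 6 tables that were tested.

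Every sample came from the mouse embryonic stem cell (ESC) line AID-FBEXOSC2, in which the exosome subunit EXOSC2 carries an auxin-inducible degron, so controls and treated cells share that genotype. Degradation was started with the auxin IAA (indole-3-acetic acid, 0.5 mM), and the 0 h groups had none; no IAA-treated cells without the degron were analysed here, so the agent and the loss of EXOSC2 cannot be told apart. Total RNA without rRNA was sequenced after 4 and 20 h, against 0 h, in ESCs and in fibroblasts (iMEFs) made from the same line with 1 µM retinoic acid over 10 days, and nascent RNA, labelled with 5-ethynyluridine for 10 min, after 1, 2 and 4 h against 0 h. Subcellular fractions at 4 h and 0 h were the insoluble nuclear one (chrRNP), the soluble nucleoplasm (np), the cytosol (cyto) and whole-cell lysate (wcl). RNA selected for poly(A) was sequenced after 4 and 12 h, against 0 h, in the nuclear pellet (RNPmesh) left after DNase I digestion and washes with urea, NP40 and salt, and after 4 and 20 h, against 0 h, in samples named RAD1 and RAD0. Per the labels' protocols, differentiation was 24 h in 2 µM retinoic acid without LIF; that this was given to RAD1 and not to RAD0 is read here from the names and from the retinoic acid markers given with the data below. Sucrose fractions F2 to F9 of nuclear lysate, at 12 h and 0 h, had 1 library each. Every other group held 2 replicates of 1 cell line, and nothing in the labels says that these were separate cultures, so the spread between them may be technical.

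SR proteins bind enhancer sequences in exons through RNA-recognition motifs and recruit the spliceosome through arginine-serine domains, whereas hnRNPs coat nascent transcripts and often keep splice sites from being used. Many of these genes tune their own output: a highly conserved poison exon or a retained intron diverts part of their transcripts to nonsense-mediated decay in the cytoplasm or to retention and decay in the nucleus, where the RNA exosome degrades RNA from its 3′ end. The deposited values are per gene, so they do not separate productive from intron-retaining or poison-exon forms, and reads shared with paralogs, pseudogenes or genes on the other strand were not separated either. Of the 34 genes 15 overlap another annotated gene, as Hnrnpab does Phykpl and Ptbp1 does Plppr3.

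Library totals of fragments are not known for 6 of the tables, since they give FPKM, fragments scaled to transcript length and library total. Of the low values in nascent RNA 93.5% to 95.0% fell within 0.05 of a whole number of fragments, which implied 2677632 to 5653054 fragments per library. ESC markers (8 genes) summed to 1810 to 1880 FPKM in ESCs at 0 h, 1350 to 1620 at 4 h and 532 to 581 at 20 h, whereas none of the 8 reached 1 in iMEFs at 0 h and Utf1 was listed at 0. Fibroblast markers (8 genes) summed to 1400 to 1450 FPKM in iMEFs, against 3.35 to 8.11 in ESCs at 0 h, and 2 of 5 endoderm markers also exceeded 1 in iMEFs. Retinoic acid response genes (6) summed to 796 to 803 FPKM in RAD1 at 0 h, against 5.89 to 8.63 in RAD0. Nuclear RNAs (4, Malat1 among them) summed to 590 to 623 FPKM in chrRNP and 1690 to 1850 in np, against 154 to 166 in cyto. The Exosc2 mRNA, which does not measure the degron-tagged protein, was at 0.989 ± 0.0728 FPKM in ESCs at 20 h, against 3.25 ± 0.711 at 0 h (SD, n = 2 each). The log2 change there was -1.08, and -0.48 after rescaling of the libraries. By limma (adjusted p under 0.05) this mRNA was also lower in np at 4 h (-0.65) and in RNPmesh at 4 and 12 h (-1.4 and -1.7). At 20 h in iMEFs (-0.34), RAD0 (-0.45) and RAD1 (0.07) it was not called. Among the libraries that stood apart from their replicates, 1 gene took 42.2% of the summed values in RNPmesh 0 h replicate 2. It was 19.3% in RNPmesh 4 h replicate 1 and 15.2% in ESC 4 h replicate 1. In all nascent libraries 1 gene took 16.1% to 23.6%, and in all chrRNP libraries 14.6% to 18.8%. The top gene took 11% and 10.8% in ESCs at 20 h, against 7.04% and 7.29% at 0 h.

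At 0 h the members were abundant, with medians of 62.3 FPKM in ESC total RNA and 32.9 FPKM in iMEFs. Hnrnpab (ENSMUSG00000020358.17, chr11:51600100-51606847, mm10), whose product binds RNA and single-stranded DNA, had the highest level of the 34 in both, at 369 FPKM in ESCs and 209 FPKM in iMEFs. Hnrnpa3, an hnRNP of the A/B type, had the lowest, at 5.38 and 4.71 FPKM in the same order. In polyadenylated RNA of RAD0 the median was 108 FPKM, and levels ran from 10.9 for Hnrnpa3 to 613 for Hnrnpa2b1, a reader of RNA motifs that also acts in RNA sorting. Nascent levels, given in RPKM over the whole gene span, ran from 1.98 for Srsf9 to 57.2 for Hnrnpa2b1. Hnrnpa3, lowest in total RNA, had 21.6 RPKM there, above the member median of 11.5. Its nascent value was 4.01 times its ESC total value, where the next highest of the 34, Tra2b, was at 0.661. These units differ, and why Hnrnpa3 stood apart was not tested, so its low FPKM may not reflect its expression. Summed over the 34 genes, ESC total RNA held 2970 FPKM at 0 h, 2350 at 4 h and 1220 at 20 h.

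All 34 genes had a peak of H3K27ac, a histone mark of active promoters and enhancers, in the authors' lists. A peak overlapped the gene span, extended by 1000 bases, for 34 of 34 members at 4 h and 34 of 34 at 0 h, against 73.2% and 69.9% of 12461 expressed genes at the same times. The lists hold positions only, and the labels give 2 control sets that the 0 h list could come from. Promoters of 33 members were found in RefSeq (GRCm38.p6), 46 in all, since 7 genes had more than 1, and the 250 bases before each start were examined. These stretches had a median GC content of 66.6% (46 to 81.2%), against 52.4% over all promoters, and a median of 23 CpG, against 6. A 4 h peak touched 43 of the 46 and a 0 h peak 44, against 23.5% and 23.1% of all promoters. The 5 stretches printed here belong to genes that later results turn on, each written 5′ to 3′ on the strand of its gene, with every searched motif in capitals. The motifs searched were the TATA box (TATAAA), the box named for its letters CCAAT, the E-box (CACGTG), an ETS-like motif (CCGGAAG) and the GC box (GGGCGG). Both strands were searched, so the GC box also appears as CCGCCC, the CCAAT box reversed as ATTGG and the ETS-like motif reversed as CTTCCGG, and matches can overlap.
Srsf5: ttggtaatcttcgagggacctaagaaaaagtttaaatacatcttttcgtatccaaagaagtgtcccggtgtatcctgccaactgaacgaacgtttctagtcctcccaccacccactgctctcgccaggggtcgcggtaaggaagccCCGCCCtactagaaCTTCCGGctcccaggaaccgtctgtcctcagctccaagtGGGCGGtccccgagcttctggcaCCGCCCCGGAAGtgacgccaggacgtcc
Srsf2: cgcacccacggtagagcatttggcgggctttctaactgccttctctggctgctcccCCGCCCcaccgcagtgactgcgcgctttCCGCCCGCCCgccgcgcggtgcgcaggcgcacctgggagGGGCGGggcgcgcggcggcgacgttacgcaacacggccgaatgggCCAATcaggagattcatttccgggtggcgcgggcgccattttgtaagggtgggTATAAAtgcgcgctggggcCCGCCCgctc
Hnrnpab: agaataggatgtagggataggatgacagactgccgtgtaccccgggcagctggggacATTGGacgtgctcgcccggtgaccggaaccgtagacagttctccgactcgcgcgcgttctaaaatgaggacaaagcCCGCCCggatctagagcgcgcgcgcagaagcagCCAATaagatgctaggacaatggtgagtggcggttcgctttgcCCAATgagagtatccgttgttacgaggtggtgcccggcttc
Hnrnpdl: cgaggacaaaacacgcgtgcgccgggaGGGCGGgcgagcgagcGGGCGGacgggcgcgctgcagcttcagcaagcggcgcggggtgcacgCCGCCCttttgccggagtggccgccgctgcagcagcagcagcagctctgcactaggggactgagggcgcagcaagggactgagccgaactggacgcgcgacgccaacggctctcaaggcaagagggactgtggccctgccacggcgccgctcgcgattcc
Ptbp2: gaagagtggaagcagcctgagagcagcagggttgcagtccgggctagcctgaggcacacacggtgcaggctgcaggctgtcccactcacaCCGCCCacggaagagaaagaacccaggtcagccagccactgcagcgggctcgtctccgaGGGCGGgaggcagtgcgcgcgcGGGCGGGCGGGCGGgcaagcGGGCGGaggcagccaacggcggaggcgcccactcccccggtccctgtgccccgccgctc
The first lies at chr12:80945249-80945498 on the plus strand, before Srsf5, the gene with the called rise in nascent RNA. The 4 h peak covered all of this stretch and the 0 h peak a part. This was also so for Srsf7, which was not called in nascent RNA. The 4 h list is the longer one, with 20449 peaks, against 16239 at 0 h. The Srsf2 stretch (chr11:116853095-116853344, minus strand) holds the letters of a TATA box, a CCAAT box and GC boxes. Stretches of Hnrnpab (chr11:51606882-51607131, minus), Hnrnpdl (chr5:100039223-100039472, minus) and Ptbp2 (chr3:119783389-119783638, minus) were covered whole by a peak at both times. Hnrnpab carries CCAAT letters on both strands, whereas of the 5 motifs only the GC box was found in Hnrnpdl and Ptbp2. Over the 46 promoters the GC box was in 36 (78.3%, against 32.7% of 32851 promoters), the CCAAT box in 22 (47.8%, against 33.8%), the ETS-like motif in 12 (26.1%, against 6.91%), the E-box in 5 (10.9%, against 6.02%) and the TATA box in 3 (6.52%, against 12.4%). Some of the 46 stretches overlap, as for Srsf4 and Pcbp2, so a site can be counted more than once. The 32851 promoters were not limited to expressed genes. A match describes letters and is no evidence that a factor binds there.

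In ESC total RNA the genes for splicing regulators were lower after EXOSC2 degradation, weakly at 4 h and broadly at 20 h, and a few hnRNP genes stood out in size. At 20 h 31 of 34 members fell and none rose, where 67.8% of 12461 genes fell and 9.47% rose (limma, adjusted p under 0.05). Their median log2 change was -1.07, against -0.76 for all genes, and 27 of the 34 lay below the median of all genes. Since the libraries as deposited were lower as a whole, each library was also rescaled by the median ratio of its genes. After that 14 members were called lower and 5 higher, where 27.8% and 27.5% of genes were. In the same libraries the 8 ESC markers summed to 532 to 581 FPKM at 20 h, against 1810 to 1880 at 0 h, and their part in the result was not tested.

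The largest falls were those of 3 hnRNP genes. Hnrnpa1 (ENSMUSG00000046434.15, chr15:103240432-103244955), which competes with SR proteins over splice-site choice, had 69.1 and 59.2 FPKM at 0 h, 43 and 55 at 4 h and 15.5 and 15.4 at 20 h. Both 20 h libraries were the lowest, and no groups overlapped. Its log2 change at 20 h was -1.98 ± 0.15 (SE; adjusted p = 0.000117) and -1.06 after rescaling. Hnrnpc (ENSMUSG00000060373.15, chr14:52073377-52104028), which binds uridine tracts in nascent RNA, had 127 and 118 FPKM at 0 h, 82 and 93.4 at 4 h and 33.1 and 32.8 at 20 h (-1.86 ± 0.12 at 20 h, adjusted p = 9.14e-05). Hnrnpab had 392 and 346 FPKM at 0 h, 257 and 302 at 4 h and 112 and 102 at 20 h. Its levels stepped down at each time without overlap, by 1.77 ± 0.15 on the log2 scale at 20 h (adjusted p = 0.000129).

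Among the SR proteins all 10 fell at 20 h, where 67.8% of all genes did. After rescaling 5 were called lower and none higher, where 27.8% and 27.5% of genes were. Srsf2 (ENSMUSG00000034120.18, chr11:116849901-116853094), a nuclear-speckle protein that activates exons, had 281 and 245 FPKM at 0 h, 189 and 211 at 4 h and 86.3 and 79.1 at 20 h, a log2 change of -1.65 ± 0.14 at 20 h (adjusted p = 0.000131). Srsf7, a shuttling SR protein that also acts in mRNA export, had 82.6 and 69.7 FPKM at 0 h, 44.1 and 55.2 at 4 h and 24.1 and 24.4 at 20 h. Its 20 h change was -1.61 ± 0.15 (adjusted p = 0.00019), and every library at 20 h lay under every one at 4 h. Srsf3, the smallest SR protein and a partner in mRNA export, had 82.1 and 77.3 FPKM at 0 h, 56.9 and 65.3 at 4 h and 26.9 and 25.9 at 20 h (-1.56 ± 0.12, adjusted p = 0.000118). After rescaling these falls remained past the threshold at -0.70 for Srsf2, -0.67 for Srsf7 and -0.62 for Srsf3, while Srsf4, Srsf5 and Srsf6 were at -0.04, -0.03 and -0.05.

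Some members moved little at 20 h. Hnrnph3, which binds G tracts like the rest of the F/H type, had 6.04 and 6.67 FPKM at 0 h, 6.75 and 7.66 at 4 h and 6.41 and 5.62 at 20 h, so the 20 h and 0 h libraries overlapped (log2 change -0.07, adjusted p = 0.628). Ptbp2, the neuronal relative of the polypyrimidine tract-binding protein, had 13.5 and 10.9 FPKM at 0 h, 9.85 and 12 at 4 h and 8.45 and 10 at 20 h (-0.36, adjusted p = 0.0753). Hnrnpa3 had 5.69 and 5.07 FPKM at 0 h, 3.26 and 4.17 at 4 h and 3.69 and 4.21 at 20 h (-0.37, adjusted p = 0.0506). Relative to the shift of all genes these 3 were higher, at 0.76, 0.52 and 0.43 after rescaling (adjusted p = 0.00209, 0.0147 and 0.0173). Pcbp1, a KH-domain protein that binds C-rich RNA, had 39.5 and 42 FPKM at 20 h, against 60.8 and 53.9 at 0 h, a fall of -0.48 ± 0.12 (adjusted p = 0.00893) that turned into a rise of 0.46 on rescaling (adjusted p = 0.00969). Hnrnpd, Hnrnpdl, Hnrnpr, Pcbp2 and Hnrnpul2 also changed sign on rescaling, with values between 0.05 and 0.23, of which Hnrnpr was called (0.20, adjusted p = 0.0428).

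**Figure D1:**
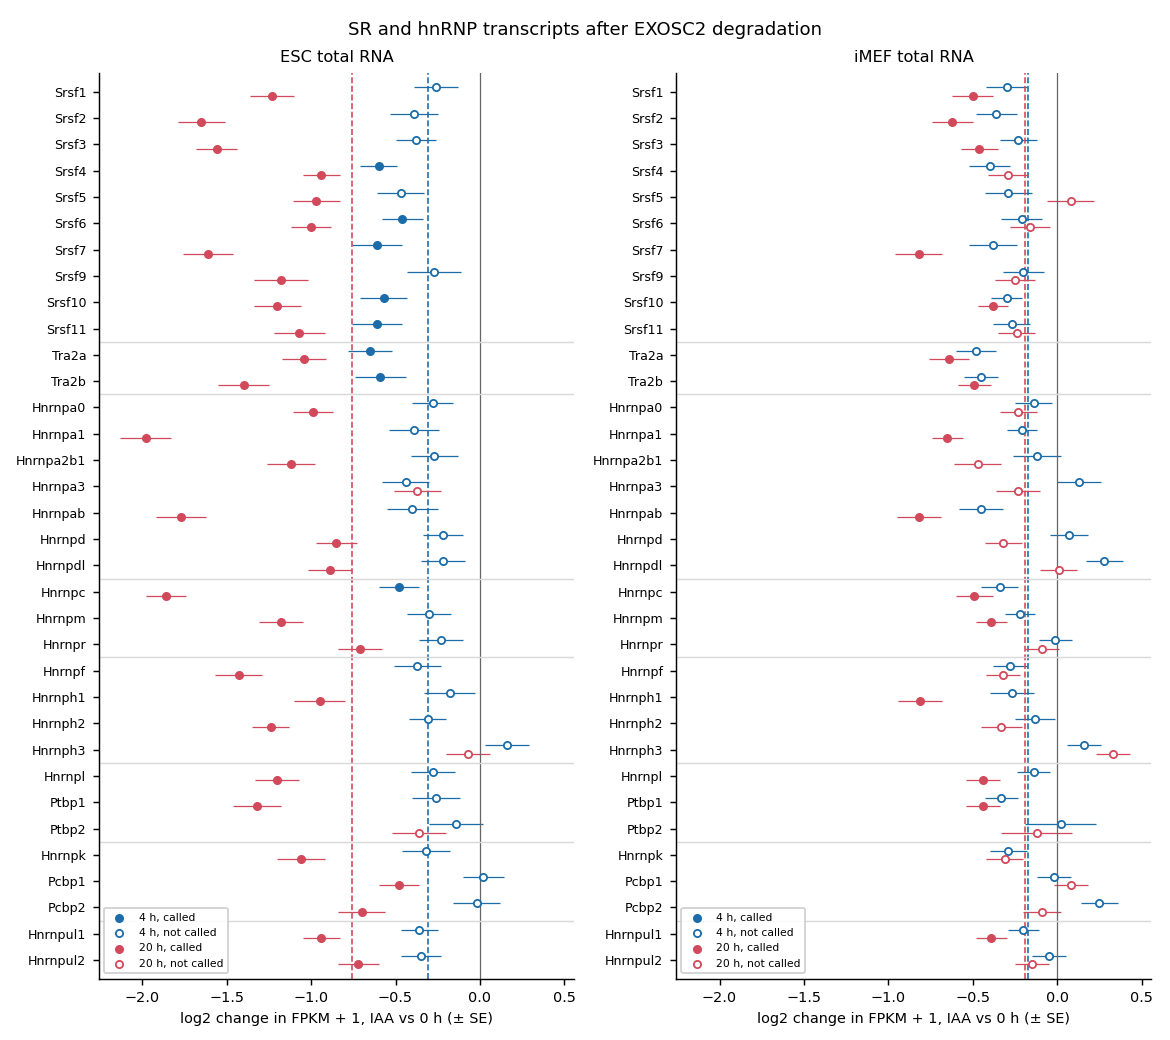
Log2 change of each of the 34 members after IAA, with its standard error, in ESC total RNA (left) and iMEF total RNA (right), at 4 h (blue) and 20 h (red); filled points passed an adjusted p of 0.05 and dashed lines mark the median of all genes. In ESCs the 20 h points run from -1.98 for Hnrnpa1 to -0.07 for Hnrnph3, and in iMEFs from -0.82 to 0.33.

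At 4 h in ESCs the calls were few and mostly of SR and Tra2 genes. Lower calls went to 8 members (Srsf4, Srsf6, Srsf7, Srsf10, Srsf11, Tra2a, Tra2b and Hnrnpc), where 21.2% of genes fell and 4.47% rose, a share of falls close to theirs; 5 of 10 SR proteins, 2 of 2 Tra2 genes and 0 of 7 hnRNPs of the A/B and D types were among them. Tra2a, an activator that binds GA-rich enhancers, had 34.9 and 41.9 FPKM at 4 h, against 61.7 and 59.4 at 0 h, a change of -0.65 ± 0.13 (adjusted p = 0.0248). Srsf4, an SR protein found in speckles, had 11.5 and 12.9 FPKM at 4 h, against 19.1 and 18.8 at 0 h (-0.60 ± 0.11, adjusted p = 0.0215). In both genes the lower group did not overlap the higher one. Only Tra2a remained called lower after rescaling (-0.27, adjusted p = 0.0388), beside 1 rise, of Hnrnph3 (0.48, adjusted p = 0.0499), where 2.05% of genes were called lower and 5.95% higher. The 8 calls rest on single libraries: none was called without 4 h replicate 1, in which a single gene took 15.2% of the summed values, or without either 0 h library, and 20 members were called without 4 h replicate 2.

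**Figure D2:**
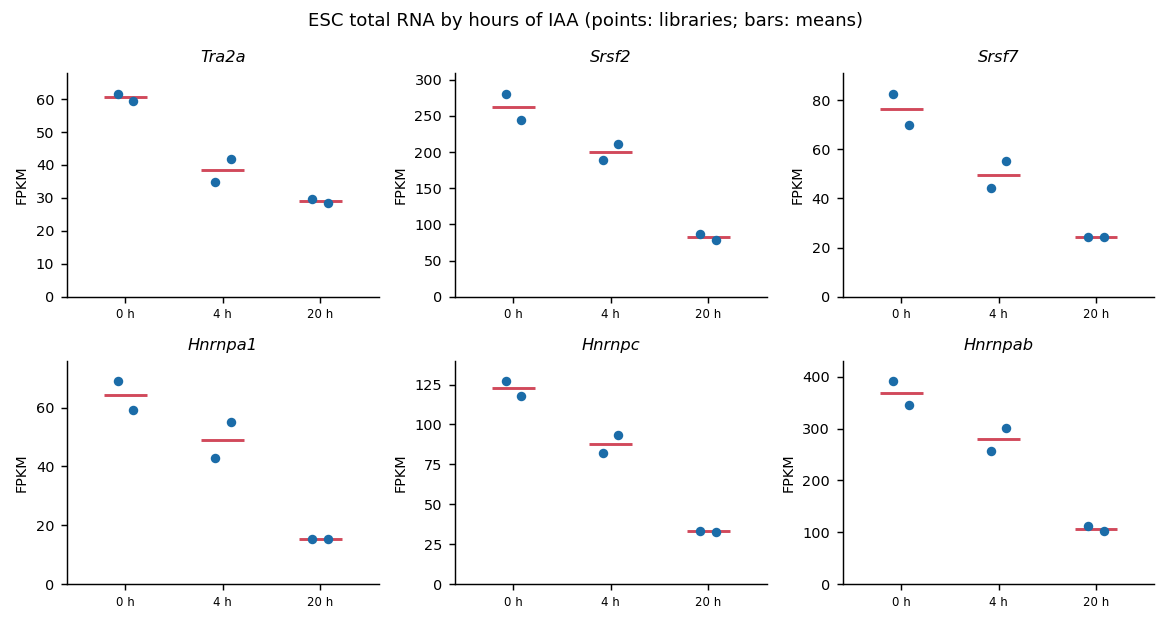
FPKM in each ESC total RNA library (points) and the mean of 2 (bars) at 0, 4 and 20 h of IAA for Tra2a, Srsf2, Srsf7, Hnrnpa1, Hnrnpc and Hnrnpab. The 20 h libraries are the lowest in all 6 genes, down to 15.5 and 15.4 FPKM for Hnrnpa1.

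On the deposited scale genes for partner proteins were also lower in ESCs, but at 20 h falls outnumbered rises after rescaling in the core spliceosome list alone. Of 19 genes for SR protein kinases and nuclear speckle proteins 8 fell at 4 h and 18 at 20 h, with none higher; after rescaling 2 were lower at 4 h, and 6 were higher and 4 lower at 20 h. Clk4, a kinase that phosphorylates SR proteins, was at 4.22 ± 0.093 FPKM at 4 h, against 8.95 ± 1.03 at 0 h (SD, n = 2 each; log2 change -0.93, adjusted p = 0.0113). Srpk1, the kinase that readies SR proteins for nuclear import, was at 10.7 ± 2.23 FPKM at 20 h, against 40.7 ± 0.692 at 0 h (-1.84, adjusted p = 0.000147). All 38 core spliceosome genes fell at 20 h (24 lower and 3 higher after rescaling) and 3 at 4 h. Snrpa1, a protein of the snRNP at the branch site, was at 7.7 ± 1.04 FPKM at 20 h, against 55.2 ± 0.743 at 0 h (-2.70, adjusted p = 7.69e-05). Among 14 nonsense-mediated decay factors 3 fell at 4 h and 14 at 20 h, and among 26 other RNA-binding splicing regulators 3 fell at 4 h, while 22 fell and 1 rose at 20 h. After rescaling the balance turned in both at 20 h, with 4 higher and 3 lower among the decay factors and 10 higher and 6 lower among the other regulators. These counts stand beside the 21.2% of all genes that were lower at 4 h and the 67.8% at 20 h.

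In iMEFs fewer of these genes were called, with Hnrnpab, Hnrnpa1 and Srsf7 again among them. At 20 h 15 members fell and none rose, where 22.2% of 12988 genes fell and 5.21% rose; the median change was -0.32, against -0.19 for all genes. After rescaling 11 were lower and 2 higher (Hnrnpdl and Hnrnph3), where 13.5% and 13.2% of genes were. Hnrnph1, a G-tract binder, had 50.9 and 40 FPKM at 20 h, against 77.9 and 81.9 at 0 h (-0.81 ± 0.13, adjusted p = 0.00774). Srsf7 had 19.5 and 15.4 FPKM at 20 h, against 29.3 and 33.7 at 0 h (-0.82 ± 0.14, adjusted p = 0.00929). Hnrnpab had 130 and 107 FPKM at 20 h, against 202 and 215 at 0 h (-0.82 ± 0.13, adjusted p = 0.00745). In these 3 genes all 20 h libraries were below all 0 h ones. Hnrnpa1 had 15.4 and 14.3 FPKM at 20 h, against 24.4 and 23.5 at 0 h (-0.65 ± 0.09, adjusted p = 0.00411), and the other falls, between -0.38 and -0.64, were those of Srsf1, Srsf2, Srsf3, Srsf10, Tra2a, Tra2b, Hnrnpc, Hnrnpm, Hnrnpl, Ptbp1 and Hnrnpul1. None of the 3 KH-domain genes was called. The count was 5 without 0 h replicate 1, 1 if 0 h replicate 2 was left out instead, and 23 if 20 h replicate 1 was, so it depends on which libraries are kept. Core spliceosome genes fell in 15 of 38, led by Snrpa1, whereas 1 of 19 kinase and speckle genes, 3 of 14 decay factors and 8 of 25 other regulators did. After rescaling 9 core spliceosome genes were lower and 3 higher, and of the kinase and speckle genes 1 was lower and 3 higher.

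At 4 h in iMEFs no member passed the limma test, where 1.63% of genes did; 15 of the 34 had an unadjusted p under 0.05, as did 26.4% of genes, and 1 was called after rescaling, where 2.94% of genes were. ESCs and iMEFs were in separate tables, and their difference was not tested. These bulk FPKM are scaled to the library total, so neither fewer surviving cells nor less RNA per cell can be read from them.

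In nascent RNA the changes of the 34 genes were centred at 0.01 at 1 h, 0.00 at 2 h and 0.05 at 4 h on the log2 scale, against 0.03, 0.00 and -0.03 for all 8876 genes. No member passed the limma test at 1 h, where 0.0451% of genes did, or at 2 h, where 0.0113% did; at each of these times 2 members had an unadjusted p under 0.05, as did 5.49% of genes at 1 h and 8.1% at 2 h, and none was called after rescaling. At 4 h 1 member rose and none fell, where 1.57% of genes rose and 0.338% fell. This was Srsf5, a shuttling SR protein (ENSMUSG00000021134.17, chr12:80945504-80950507, mm10), with 13.7 and 15.3 RPKM at 0 h, 20.7 and 18.1 at 1 h, 17.5 and 20.4 at 2 h and 32.1 and 31.2 at 4 h. Every labelled library after IAA lay above both 0 h ones. The 4 h change was 1.08 ± 0.14 (adjusted p = 0.0336), from 645 and 553 fragments at 4 h, against 374 and 205 at 0 h. Leaving out any 1 of the 4 libraries ended the call. In ESC total RNA the same gene had 38.9 and 46.8 FPKM at 4 h, against 62.5 and 56.7 at 0 h, a change that missed the threshold (-0.47, adjusted p = 0.0539). Of the other genes of the splicing lists, Rbm17, which acts at splice sites beside the branch-site snRNP, rose to 14.2 ± 1.05 RPKM at 4 h, against 3.84 ± 0.517 at 0 h (SD, n = 2 each; 1.65, adjusted p = 0.0239). In simulated data 38% of genes with a log2 change of 1 were recovered in the 4 h nascent comparison, against 71% at 20 h in ESC total RNA, so changes of the size seen in total RNA could be missed here.

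In untreated cells the nucleoplasm and the cytosol differed for 20 of the 34 genes. Against cyto, 5 members were higher in np and 15 lower, where 28% and 33.8% of 14069 genes were; after rescaling 9 were higher and 15 lower, where 32.7% and 29% of genes were. The 5 were Hnrnph1, Hnrnph3, Hnrnpa3, Srsf5 and Srsf10. Hnrnph1 had 110 and 110 FPKM in np, against 50.8 and 51.5 in cyto (1.09 ± 0.19, adjusted p = 0.000716), and Hnrnph3 had 10.2 and 9.97 in np, against 5.82 and 4.41 in cyto (0.87 ± 0.20, adjusted p = 0.00317). Srsf5 had 86.4 and 87.5 FPKM in np, against 61.7 and 61.2 in cyto (0.49 ± 0.20, adjusted p = 0.0497). Srsf10, a relative of Tra2 that can repress splicing, had 61.4 and 63 FPKM in np, against 42.1 and 48.7 in cyto (0.45 ± 0.16, adjusted p = 0.0289). In all 5 genes the np libraries lay above the cyto ones. At the other end, Srsf9, a short SR protein, had 18.8 and 22.2 FPKM in np, against 83.2 and 80.6 in cyto (-1.95 ± 0.21, adjusted p = 1.33e-05). The KH-domain genes Pcbp1 and Pcbp2 were also lower in np, at -1.39 and -1.58, although their cyto libraries differed among themselves (75.6 and 35.5 FPKM for Pcbp2). With 1 library left out, 11 to 14 members were called instead of 20.

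The insoluble chrRNP fraction held less of nearly all members relative to the library total. Against cyto, 1 member was higher and 30 lower, where 14.3% and 63.4% of genes were, with a median of -1.74, against -0.88 for all genes. After rescaling, which removes that shift, 7 were higher and 17 lower, where 37.4% and 32.9% were. Hnrnpa0, a single-exon hnRNP gene, had 12.3 and 27.8 FPKM in chrRNP, against 177 and 210 in cyto (-3.30 ± 0.31, adjusted p = 4.69e-06; -1.90 after rescaling). Srsf9 had 6.48 and 10.9 FPKM in chrRNP, against 83.2 and 80.6 in cyto (-3.14 ± 0.21, adjusted p = 9.94e-07), and Hnrnpl, a reader of CA repeats, had 18 and 38.6, against 185 and 181 (-2.75 ± 0.28). No chrRNP library of these genes came near a cyto library. Hnrnpa3 was the exception, with 3.75 and 4.1 FPKM in chrRNP, against 2.71 and 2.2 in cyto (0.51 ± 0.10, adjusted p = 0.000666, and 1.69 after rescaling). As given above, the low FPKM of this gene may not reflect its expression. Srsf10 had 28.7 and 38.8 FPKM in chrRNP, against 42.1 and 48.7 in cyto, lower as deposited (-0.43) but higher after rescaling (0.99, adjusted p = 2.01e-05), and Srsf5 was likewise at -1.01 as deposited and 0.40 after rescaling. The chrRNP 0 h libraries differed in the summed level of the 34 genes, at 736.4 FPKM in replicate 1 and 1288 in replicate 2. Of the kinase and speckle genes 9 of 19 were higher and 1 lower in np than in cyto, such as Son, a speckle scaffold, at 62.4 FPKM in np and 21.1 in cyto (1.52 as a log2 difference). In chrRNP, against cyto, 2 of these 19 were higher and 11 lower as deposited, and 13 higher and 3 lower after rescaling. Of 38 core spliceosome genes 3 were higher and 18 lower in np, and 1 was higher and 37 lower in chrRNP (3 and 26 after rescaling).

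**Figure D3:**
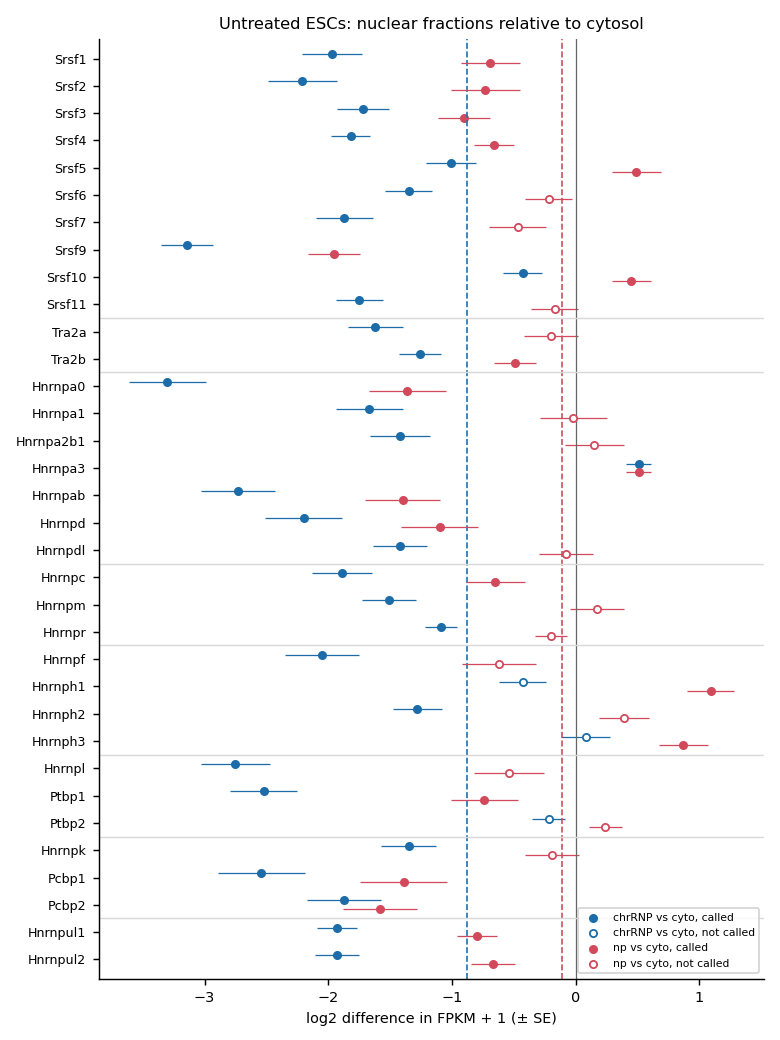
Log2 difference of each member from the cytosol in untreated ESCs, with its standard error, for chrRNP (blue) and np (red). Hnrnph1 and Hnrnph3 stand highest in np at 1.09 and 0.87, and Hnrnpa0 lies lowest in chrRNP at -3.30.

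After 4 h of IAA the nucleoplasm showed the called falls. Of the members 4 were called lower in np and none higher, where 23.4% and 7.43% of genes were. The smaller share concerns calls only. Both 4 h libraries lay below both 0 h ones in 30 of the 34, as they did in 62.5% of genes. Srsf4 had 8.09 and 8.89 FPKM in np at 4 h, against 13 and 15.1 at 0 h (-0.66 ± 0.16, adjusted p = 0.0101). Srsf10 had 40.5 and 42.8 FPKM at 4 h, against 61.4 and 63 at 0 h (-0.57 ± 0.16, adjusted p = 0.0206). Hnrnpa3 and Ptbp2 each changed by -0.36 (adjusted p = 0.0209 and 0.0493). The median of the members was -0.35, against -0.29 for all genes, and after rescaling 2 were called lower, where 8.05% of genes were. Leaving out 1 library left between 0 and 2 calls. In np 10 of 19 kinase and speckle genes fell, with Clk4 at 7.74 FPKM at 4 h, against 15.1 at 0 h (-0.88, adjusted p = 0.000738), and 3 of 38 core spliceosome genes did; after rescaling 5 and 2 were lower.

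In the remaining fractions no member passed the limma test at 4 h: of genes as a whole 8.82% did in chrRNP, 6.45% in cyto and 19.2% in wcl, and 13, 4 and 5 members had an unadjusted p under 0.05 in the same order, as did 24.6%, 16.6% and 34.4% of genes. After rescaling 3, 3 and 1 were called, where 17%, 6.53% and 10.3% of genes were. In chrRNP 32 of 34 values were positive, with a median of 0.40, against 0.21 for all genes. Hnrnpa2b1 was at 0.75 (adjusted p = 0.0831) and Hnrnpdl at 0.70 (adjusted p = 0.0748), which rescaling put at 0.42 and 0.38 with calls (adjusted p = 0.0195 and 0.029). The count there went to 29 members, all higher, without chrRNP 0 h replicate 2, the library with the higher summed level. Changes in a nuclear fraction were also set against the change in cyto. None of the 34 was called in chrRNP minus cyto, where 0.135% of genes were, nor in np minus cyto, where 1% were; 2 and 8 members had an unadjusted p under 0.05, as did 8.76% and 21.9% of genes, and after rescaling none was called in either, where 0.291% and 0.689% of genes were. Without chrRNP 0 h replicate 2, 12 members were called in chrRNP minus cyto. The median of np minus cyto was -0.50, against -0.32 for all genes.

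In the RNPmesh, where polyadenylated transcripts that stay in the nucleus are recovered, SR and Tra2 mRNAs were among those lower by 4 h. At that time 9 members fell and none rose, where 19.1% of 12725 genes fell and 5.49% rose: Srsf2, Srsf3, Srsf4 and Srsf7, both Tra2 genes, Hnrnpab, Hnrnpa1 and Hnrnph3. At 12 h 15 fell and 2 rose, where 31.6% and 16.3% did; the medians were -0.38 at 4 h and -0.57 at 12 h, against -0.20 and -0.23 for all genes. Srsf2 had 272 and 244 FPKM at 0 h, 123 and 128 at 4 h and 116 and 110 at 12 h. The 12 h libraries lay just under the 4 h ones, with changes of -1.03 ± 0.22 at 4 h (adjusted p = 0.0129) and -1.19 ± 0.22 at 12 h (adjusted p = 0.00258). Tra2a had 74.7 and 55.1 FPKM at 0 h, 29.9 and 34 at 4 h and 35.8 and 34.9 at 12 h (-0.99 ± 0.22 at 4 h, adjusted p = 0.0161). Srsf4 had 36.7 and 44.9 FPKM at 0 h, 19.1 and 24 at 4 h and 18 and 21.2 at 12 h (-0.89 ± 0.22 at 4 h, adjusted p = 0.0214). In each of these the libraries after IAA lay below those at 0 h. Hnrnpab had 198 and 171 FPKM at 0 h, 108 and 113 at 4 h and 73.6 and 76.7 at 12 h, a further step down (-1.28 ± 0.22 at 12 h, adjusted p = 0.00172). Hnrnpa0 had 38.7 and 40.2 FPKM at 0 h, 24.2 and 28.5 at 4 h and 14.9 and 17.2 at 12 h (-1.25 ± 0.20 at 12 h, adjusted p = 0.00143).

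At 12 h Hnrnpa3 and Ptbp2 were the members called higher in the RNPmesh on the deposited scale. Hnrnpa3 had 13.7 and 10.9 FPKM at 0 h, 13.5 and 16 at 4 h and 23.2 and 23.7 at 12 h (0.89 ± 0.21 at 12 h, adjusted p = 0.00744). The doubt about the FPKM of Hnrnpa3 given above holds here too. Ptbp2 had 6.1 and 4.79 FPKM at 0 h, 6.77 and 6.12 at 4 h and 9.79 and 9.76 at 12 h (0.75 ± 0.19 at 12 h, adjusted p = 0.0125). Both 12 h libraries were above all earlier ones in each gene, and both rises stayed past the threshold after rescaling, at 1.15 and 0.99. Hnrnpa2b1 was at 0.49 (adjusted p = 0.127), Hnrnpk at 0.46 (adjusted p = 0.113), Hnrnph2 at 0.41 (adjusted p = 0.129) and Hnrnpr at 0.29 (adjusted p = 0.228), and all 4 were called after rescaling. Rescaling gave 11 lower and 6 higher at 12 h, where 23.6% and 24.5% of genes were, but at 4 h only Srsf2 and Tra2a lower, where 9.06% were. Leaving out 0 h replicate 1 gave 4 calls at 4 h, leaving out 0 h replicate 2 gave 3, and leaving out either 4 h library gave 0; at 12 h 13 or 14 members were called whichever library was left out. Clk2, an SR protein kinase, was at 72.4 ± 15.4 FPKM at 12 h, against 264 ± 22.1 at 0 h (SD, n = 2 each; -1.87, adjusted p = 0.000539), and of the 19 kinase and speckle genes 9 fell and 4 rose. Core spliceosome genes gave 10 falls and 6 rises among 37, and the decay factors 2 falls and 5 rises among 14. After rescaling these lists stood at 5 lower and 5 higher, 6 lower and 10 higher, and 0 lower and 5 higher in the same order. In the same libraries the 4 nuclear RNAs summed to 12300 to 18500 FPKM at 12 h, against 4380 to 5600 at 0 h; the part of this in the results was not tested.

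**Figure D4:**
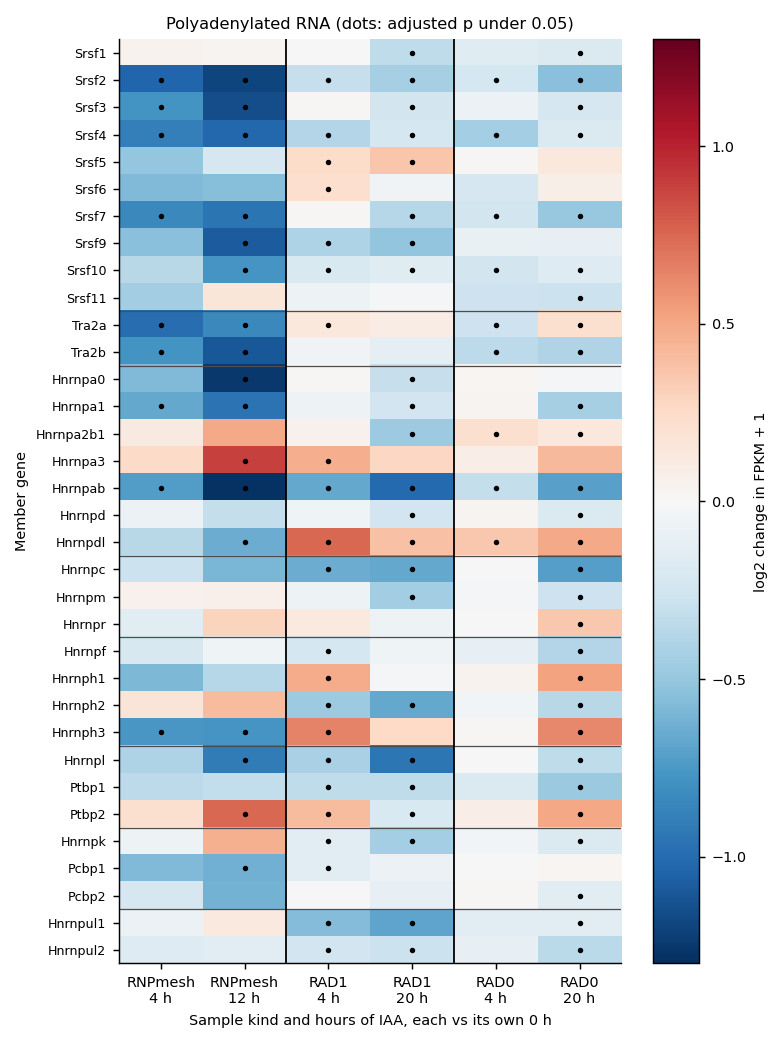
Log2 change of each member in polyadenylated RNA of the RNPmesh at 4 and 12 h, of RAD1 at 4 and 20 h and of RAD0 at 4 and 20 h, each against its own 0 h, with dots where the adjusted p was under 0.05. Hnrnpab is low in most columns, down to -1.28 in RNPmesh at 12 h, and Hnrnpdl is high in RAD1 and RAD0, up to 0.75.

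In the sucrose gradients of nuclear lysate the values of the members were weighted toward later fractions than those of most genes, and shifted as all genes did. A mean fraction number could be given for 29 of 34, those with summed values of at least 80 FPKM at both times, and 3428 genes in all. Its median over the members was 5.56 at 12 h and 5.08 at 0 h, against 4.98 and 4.49 over all genes. The shift was 0.46 for the members and 0.48 for all genes. The number was higher at 12 h for 29 of 29, as for 97.0% of genes. Hnrnpa2b1 shifted by 0.73, with 5.82 at 12 h and 5.09 at 0 h, the largest shift of the 29. Srsf10 (5.56 at 12 h, 5.53 at 0 h) and Hnrnph3 (5.74 at 12 h, 5.69 at 0 h) moved least. Of the other members that were higher in np than in cyto, Srsf5 shifted by 0.43 and Hnrnph1 by 0.33. Hnrnph1 had the highest mean fraction number at both times, 6.16 at 12 h and 5.83 at 0 h. The fraction with the highest value was F6 for 20 members at 12 h, and F5 for 15 and F4 for 11 at 0 h. With 1 library per fraction there is no replicate check and no test. FPKM are scaled within each library, so these numbers do not show how much RNA lay in each fraction. With equal library totals the member medians were 6.59 at 12 h and 6.08 at 0 h (all genes 6.11 and 5.68).

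Polyadenylated RNA was measured with and without IAA in both the RAD1 and the RAD0 samples. When IAA was given relative to retinoic acid is not in the labels. The same hours of IAA may therefore not be like exposures in RAD1 and RAD0. Without IAA, 8 members were higher in RAD1 than in RAD0 and 10 lower, where 27.7% and 19% of 15408 genes were; after rescaling 7 were higher and 19 lower, where 22.9% and 23.8% of genes were. The highest was Ptbp2 (ENSMUSG00000028134.11, chr3:119718742-119783804), with 26.9 and 26.5 FPKM in RAD1, against 12 and 12.4 in RAD0 (1.07 ± 0.05, adjusted p = 1.03e-06). Hnrnph1 had 187 and 192 FPKM in RAD1, against 114 and 114 in RAD0 (0.73 ± 0.05, adjusted p = 4.64e-06). Lower in RAD1 were Hnrnpf, at 91.4 and 82 FPKM in RAD1, against 124 and 135 in RAD0 (-0.58 ± 0.07, adjusted p = 0.00029), and Srsf2, at 286 and 282 FPKM in RAD1, against 403 and 434 in RAD0 (-0.55 ± 0.05, adjusted p = 6.07e-05). The groups did not overlap in these genes. Within the F/H type, Hnrnph1 and Hnrnph3 (0.47) were thus higher in RAD1 and Hnrnpf and Hnrnph2 (-0.41) lower. Ptbp1, which represses an exon whose skipping exposes Ptbp2 mRNA to decay, was not called on the deposited scale. It had 219 and 207 FPKM in RAD1, below the 227 and 235 in RAD0. Of the core spliceosome genes 1 was higher in RAD1 and 24 of 38 were lower (1 and 29 after rescaling).

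After IAA both rises and falls were called in polyadenylated RNA, and their balance depended on the scale. In RAD1 8 members rose and 14 fell at 4 h, where 18.1% and 32.7% of genes did, and 2 rose and 21 fell at 20 h, where 23.1% and 33.8% did. After rescaling 13 were higher and 8 lower in RAD1 at 4 h, where 22.5% and 24.8% of genes were, and 4 higher and 15 lower at 20 h, where 26.9% and 28.1% were. In RAD0 2 rose and 7 fell at 4 h, where 5.26% and 13.5% did, and 7 rose and 21 fell at 20 h, where 18.4% and 33% did. After rescaling 3 were higher and 2 lower in RAD0 at 4 h, where 6.04% and 4.46% were, and 11 higher and 10 lower at 20 h, where 23.9% and 24.8% were. The medians stayed near those of all genes, from -0.04 in RAD0 at 4 h (all genes -0.11) to -0.25 in RAD1 at 20 h (all genes -0.11). Both times of RAD1 share its 0 h libraries, and both times of RAD0 share theirs, as do the times of every other table.

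Hnrnpdl (ENSMUSG00000029328.15, chr5:100033577-100039222), an hnRNP D relative whose human counterpart is known to control its own mRNA through splicing, was the member called higher at both times in both. In RAD1 it had 95.7 and 94.2 FPKM at 0 h, 161 and 159 at 4 h and 127 and 121 at 20 h (0.75 ± 0.04 at 4 h, adjusted p = 2.89e-06). In RAD0 it had 98.6 and 99.7 FPKM at 0 h, 129 and 123 at 4 h and 138 and 142 at 20 h (0.49 ± 0.04 at 20 h, adjusted p = 2.45e-05). No library after IAA overlapped those at 0 h; in total RNA of ESCs the same gene was lower at 20 h, at 39 and 40.9 FPKM, against 80.6 and 69.9 at 0 h (-0.89, adjusted p = 0.00106; 0.05 after rescaling). Hnrnph3 had 28.2 and 20.9 FPKM at 0 h, 37.6 and 39.2 at 4 h and 27.6 and 31 at 20 h in RAD1, against 17.4 and 17.2, 17.2 and 17.9, and 27.2 and 27.2 FPKM at the same times in RAD0. Its rise was called at 4 h in RAD1 (0.64 ± 0.12, adjusted p = 0.00209) and at 20 h in RAD0 (0.62 ± 0.12, adjusted p = 0.00221). Hnrnph1 had 187 and 192 FPKM at 0 h, 260 and 270 at 4 h and 187 and 183 at 20 h in RAD1, against 114 and 114, 118 and 119, and 158 and 170 FPKM in RAD0. Here RAD1 was highest at 4 h and RAD0 at 20 h, with the timing of IAA relative to retinoic acid not known.

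On the deposited scale most SR proteins fell at 20 h. In RAD1 7 of 10 were lower and 1 higher, where 33.8% and 23.1% of genes were. In RAD0 7 were lower and none higher, where 33% and 18.4% of genes were. After rescaling 4 were lower and 1 higher in RAD1, where 28.1% and 26.9% of genes were. For RAD0 rescaling left 2 lower and 2 higher, close to the 24.8% and 23.9% of all genes. Srsf2 had 286 and 282 FPKM at 0 h, 230 and 233 at 4 h and 219 and 204 at 20 h in RAD1, against 403 and 434, 363 and 351, and 280 and 296 FPKM in RAD0. The 20 h change was -0.43 ± 0.05 in RAD1 (adjusted p = 0.000177) and -0.54 ± 0.05 in RAD0 (adjusted p = 6.15e-05), and it was called lower after rescaling too, at -0.30 and -0.37. Srsf5 was the exception, with 102 and 99.1 FPKM at 0 h, 114 and 125 at 4 h and 128 and 130 at 20 h in RAD1 (0.36 ± 0.06 at 20 h, adjusted p = 0.000914). Srsf4 fell at 4 h in RAD0, to 29.2 and 28.1 FPKM, against 39.6 and 38.7 at 0 h (-0.44 ± 0.05, adjusted p = 0.00119), the largest fall of the 34 there.

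Hnrnpab and Hnrnpc were among the hnRNPs that fell in both RAD1 and RAD0. Hnrnpab had 452 and 429 FPKM at 0 h, 264 and 288 at 4 h and 214 and 223 at 20 h in RAD1, against 537 and 541, 437 and 430, and 319 and 341 FPKM in RAD0. Its 20 h change was -1.01 ± 0.06 in RAD1 (adjusted p = 1.18e-06) and -0.71 ± 0.06 in RAD0 (adjusted p = 1.51e-05). Hnrnpc had 149 and 150 FPKM in RAD1 at 20 h, against 239 and 236 at 0 h (-0.67 ± 0.07, adjusted p = 3.98e-05), and 171 and 150 in RAD0 at 20 h, against 270 and 261 at 0 h (-0.72 ± 0.07, adjusted p = 3.55e-05). In Hnrnpab and Hnrnpc every 20 h library lay below every 0 h one, as it did in others such as Hnrnpl, Hnrnpm and Hnrnph2.

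**Figure D5:**
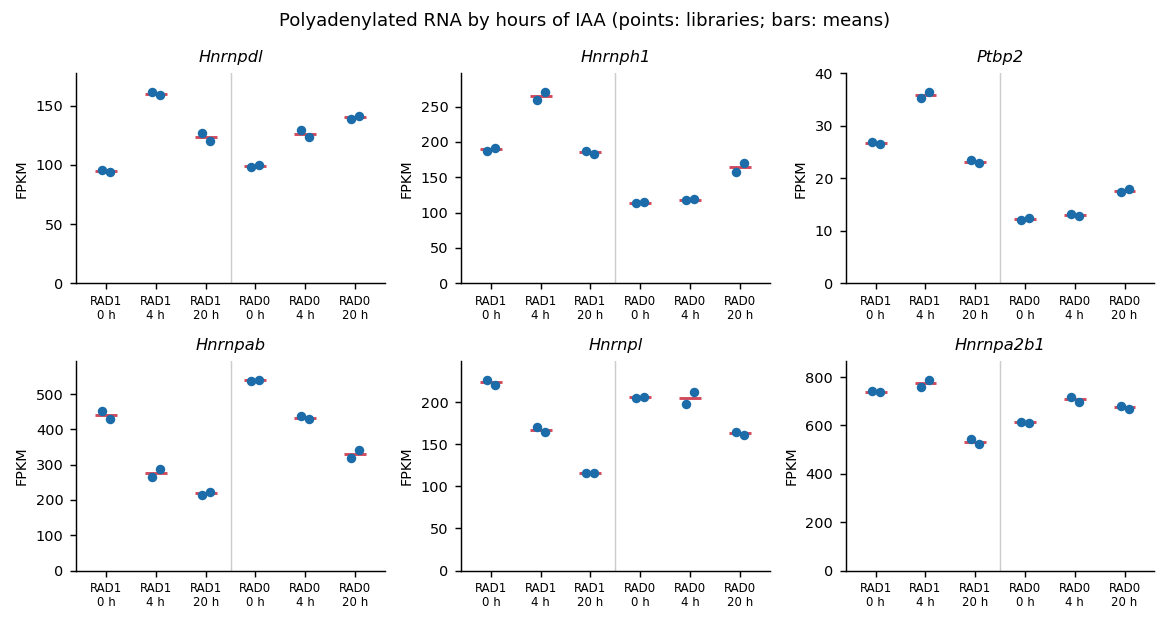
FPKM in each library (points) and the mean of 2 (bars) for Hnrnpdl, Hnrnph1, Ptbp2, Hnrnpab, Hnrnpl and Hnrnpa2b1 at 0, 4 and 20 h of IAA, in RAD1 (left) and RAD0 (right). Ptbp2 starts at 26.9 and 26.5 FPKM in RAD1 and at 12 and 12.4 in RAD0, and Hnrnpl ends at 116 and 116 in RAD1 and at 165 and 162 in RAD0.

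The 20 h change itself differed between RAD1 and RAD0 for 10 members, 1 higher and 9 lower in RAD1, where 13.9% and 11.6% of genes were. Ptbp2 differed most, by -0.70 ± 0.07 (adjusted p = 0.000298): it had 23.4 and 22.9 FPKM in RAD1 at 20 h, against 26.9 and 26.5 at 0 h, and 17.4 and 17.9 in RAD0 at 20 h, against 12 and 12.4 at 0 h. Hnrnpa2b1 had 544 and 523 FPKM in RAD1 at 20 h, against 741 and 739 at 0 h, and 682 and 668 in RAD0 at 20 h, against 615 and 611 at 0 h (difference -0.61 ± 0.06, adjusted p = 0.000222). In both genes the change was downward in RAD1 and upward in RAD0. Hnrnpl had 116 and 116 FPKM in RAD1 at 20 h, against 227 and 221 at 0 h, and 165 and 162 in RAD0 at 20 h, against 205 and 207 at 0 h (difference -0.61 ± 0.06, adjusted p = 0.000311). Hnrnph1 (-0.55) and Hnrnpul1 (-0.53) also differed, and smaller differences were called for Hnrnpr, Hnrnpab, Hnrnpa0 and Hnrnpk. Tra2b was the only one with the higher change in RAD1 (0.27 ± 0.08, adjusted p = 0.0333; 0.0652 after rescaling), and none of the 10 SR proteins was called. The retinoic acid markers also differed along these libraries, at 796 to 803 FPKM in RAD1 at 0 h, 283 to 292 at 4 h and 149 to 163 at 20 h, and the 5 endoderm markers summed to 3.55 to 3.74 FPKM in RAD1 at 20 h, against 16 to 16.5 at 0 h. ESC markers summed to 1370 to 1560 FPKM in RAD1 at 20 h, against 1740 to 1860 at 0 h, and to 1890 to 2070 in RAD0 at 20 h, against 3010 to 3040 at 0 h. The 4 nuclear RNAs summed to 1730 to 1800 FPKM in RAD1 at 20 h, against 274 to 307 at 0 h, and to 2210 to 2230 in RAD0 at 20 h, against 317 to 370 at 0 h. At 4 h they summed to 1640 to 1750 FPKM in RAD1 and to 456 to 476 in RAD0. Neural markers summed to 37.4 to 42.5 FPKM in RAD1 at 20 h, against 2.27 to 2.81 at 0 h, and to 57.6 to 64.4 in RAD0 at 20 h, against 10.2 to 11 at 0 h. Few genes made up these sums: of 4 neural markers, 2 reached 1 FPKM in RAD1 at 20 h and 1 at 0 h. In RAD0 1 reached it at 20 h and 2 at 0 h, so the RAD0 rise is not one of the whole list. The part of these markers in the results in RAD1 and RAD0 was not tested.

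Among the companion genes at 20 h 26 of 38 core spliceosome genes fell and 4 rose in RAD1, and 32 fell and none rose in RAD0; after rescaling 22 were lower and 7 higher in RAD1, and 25 lower and 2 higher in RAD0. Snrpa1 was at 17.6 FPKM in RAD0 at 20 h, against 78 at 0 h (-2.09, adjusted p = 1.29e-06). The kinase and speckle genes gave 8 rises and 8 falls of 19 in RAD1 and 5 and 5 in RAD0, and after rescaling 9 and 3 in RAD1 and 9 and 4 in RAD0. The other splicing regulators gave 5 rises and 16 falls of 26 in RAD1 and 9 and 11 in RAD0 (7 and 8, and 11 and 10, after rescaling). The decay factors gave 5 rises and 5 falls of 14 in RAD1 and 4 and 6 in RAD0 (5 and 3, and 7 and 4, after rescaling). Rbm17 was at 138 FPKM in RAD1 at 20 h, against 51.7 at 0 h (1.40), and Mbnl2, a muscleblind splicing factor, at 24.3 FPKM in RAD0 at 20 h, against 8.44 at 0 h (1.42).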

How the data were processed

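RNA of 70 libraries in 7 tables of 52885 genes was used, out of 139 samples; 69 samples of other assays were not used, apart from 2 lists of H3K27ac peaks. The FPKM values of 6 tables were deposited by the authors and made with TopHat2 2.0.11 and Cufflinks 2.0.2 for the mm10 build, as the submitters' processing notes list them; nascent RPKM were deposited by the authors and resolve into whole fragments over the gene span. Peaks (Bowtie2 2.2.6, MACS2) were deposited as positions without scores. Neither the counting strand nor any use of the spike-ins is given in the sources used here; if a spike-in was not applied, a change in RNA per cell is not in the values.

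The unit tested was log2(value + 1), for genes that reached 1 in 2 or more libraries, with limma 3.58.1 (trend, moderated) in R 4.3.3 (package data.table, version 1.17.8), with the groups of each table fitted together. Changes understate those of low genes. P-values were adjusted by Benjamini-Hochberg over all genes in each of 23 contrasts (threshold 0.05, 2 libraries per group). The alternatives changed 1 choice at a time: the pseudocount (0.1), the filter (none), the scale (rescaled libraries), a replicate block, the trend (none), or the libraries (each left out in turn). The fit was tested on simulated data with 200 changed genes; a log2 change of 1 was recovered in 11% of them (RNPmesh 4 h) to 91% (RAD0 4 h), depending on the comparison. Mean fraction numbers, peak overlaps, promoters and figures were computed in Python 3.11.15 with numpy 2.4.6, pandas 2.3.3 and matplotlib 3.10.9. The members, the lists of companion and marker genes and the rule for named genes were chosen with earlier results of these data known. That rule gives library values for up to 4 called rises and 4 called falls per contrast whose libraries do not overlap, and the same genes in other contrasts of the table, and 2 genes of a companion list by smallest p; part of them is printed, and members that were not called are named for contrast, chosen after their values were seen.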

Additional observations from a re-analysis of the deposited data

Results flagged for a closer look

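The change after 20 h of IAA differed between RAD1 and RAD0 for 10 members by a test of the difference itself (limma, adjusted p under 0.05). Lower in RAD1 were Ptbp2 (-0.70), Hnrnpa2b1 (-0.61), Hnrnpl (-0.61), Hnrnph1 (-0.55), Hnrnpul1 (-0.53), Hnrnpr (-0.42), Hnrnpab (-0.30), Hnrnpa0 (-0.27) and Hnrnpk (-0.24), each the log2 change in RAD1 minus that in RAD0. Tra2b was higher in RAD1 (0.27).

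In 4 more cases every library moved one way in the first setting and the opposite way in the other, and the difference was not tested. For RAD1 and RAD0 the timing of IAA relative to retinoic acid is not in the labels. Srsf6 at 4 h was at 0.22 in RAD1 (adjusted p = 0.0274) and -0.22 in RAD0 (adjusted p = 0.061), a difference of 0.44. Tra2a at 4 h was at 0.14 in RAD1 (adjusted p = 0.0432) and -0.27 in RAD0 (adjusted p = 0.00862), a difference of 0.41. Hnrnpdl at 4 h was at -0.22 in ESCs (adjusted p = 0.22) and 0.28 in iMEFs (adjusted p = 0.178), a difference of -0.50; both were positive after rescaling, at 0.15 and 0.46. Pcbp1 at 20 h was at -0.48 in ESCs (adjusted p = 0.00893) and 0.08 in iMEFs (adjusted p = 0.537), a difference of -0.56, and at 0.46 and 0.31 after rescaling.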

How the results depend on the processing

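Counts of called members were computed 219 times under other settings, and 175 lay within 1.5 times the reported count. Rescaled libraries gave 2 calls in ESCs at 4 h (8 reported), 19 in ESCs at 20 h (31), 1 in iMEFs at 4 h (0), 3 in chrRNP at 4 h (0), 2 in np at 4 h (4), 3 in cyto at 4 h (0), 1 in wcl at 4 h (0), 2 in RNPmesh at 4 h (9) and 5 in RAD0 at 4 h (9). Rescaling also moved the balance of higher and lower calls, to 13 and 8 in RAD1 at 4 h (8 and 14 reported), 11 and 10 in RAD0 at 20 h (7 and 21) and 9 and 15 between np and cyto (5 and 15). Without a filter there were 0 in ESCs at 4 h and 2 in RNPmesh at 4 h, and without the trend 1 in wcl at 4 h and 6 in the RAD1 minus RAD0 change (10). The numbers do not pair the samples, since deviations of same-numbered libraries correlated between -0.14 and 0.15. With a replicate block there were 0 calls in ESCs at 4 h, 0 in nascent RNA at 4 h (1), 1 in chrRNP at 4 h and 1 in wcl at 4 h. Leaving out 1 library gave 0 to 20 calls in ESCs at 4 h, 1 to 23 in iMEFs at 20 h (15), 0 in nascent RNA at 4 h, 0 to 29 in chrRNP at 4 h, 0 to 2 in np at 4 h, 11 to 14 between np and cyto (20), 0 to 12 in chrRNP minus cyto (0), 0 to 4 in RNPmesh at 4 h, 4 to 8 in RAD0 at 4 h, 14 to 16 in RAD1 at 4 h (22) and 7 to 10 in the RAD1 minus RAD0 change; a library left alone in its group was taken to vary like the other groups. Rescaling reversed 16 of 246 called values. At 20 h in ESCs these were Hnrnpd (0.09), Hnrnpdl (0.05), Hnrnpr (0.20), Pcbp1 (0.46), Pcbp2 (0.23) and Hnrnpul2 (0.17). Between chrRNP and cyto they were Srsf5 (0.40), Srsf6 (0.07), Srsf10 (0.99), Tra2b (0.12), Hnrnpa2b1 (0.01), Hnrnpr (0.27), Hnrnph2 (0.08) and Hnrnpk (0.08). At 20 h in RAD0 they were Pcbp2 (0.02) and Hnrnpul1 (0.01). The median mean fraction number at 12 h (5.56) was 5.31 with a minimum summed value of 160, 6.59 with libraries scaled to the same total, 5.71 without F2 and 5.23 without F9. The cause of these moves was not tested. With 2 libraries per group, and depth not known in 6 tables, small changes could be missed.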
